A study of Homo sapiens with 6 samples.

Results

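Aminoacyl-tRNA synthetases are the enzymes that join each amino acid to its transfer RNA. The 37 human genes of the family were chosen by name, without use of measured values: 18 code for enzymes of the cytosol, 17 for enzymes of mitochondria, and GARS1 and KARS1 for enzymes that work in both. They were found in 50 of the 38648 entries of the deposited table, or as 37 of its 34644 gene names, because VARS1 was listed 7 times, VARS2 6 times, and CARS1 and SARS2 2 times each. All 37 passed the filter on low counts, in at least 1 of their entries.

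The 6 libraries were made from HK-2 cells, a line immortalized from the proximal tubule of a human kidney. All cells carried a lentivirus, had been selected with puromycin, and were collected 7 days after a single dose of 8 Gy of X-rays. In IR+NC-LV (n = 3) the virus was the negative control, and in IR+PR-LV (n = 3) it carried PRDM16, a transcriptional regulator, so that the groups differed in the insert and no unirradiated cells were included. The comparison asks how added PRDM16 affects irradiated, senescent tubular cells.

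Each synthetase recognizes its amino acid and the matching transfer RNAs, first activating the amino acid with ATP and then transferring it to the RNA, and the accuracy of translation rests on this step. The enzymes fall into a pair of structural classes, and several of the cytosolic ones are held together with scaffold proteins in the multisynthetase complex. Mitochondria use a separate set, also encoded in the nucleus, to read the messages of the mitochondrial genome. In many cell types the transcription factor ATF4 raises the genes of a number of cytosolic synthetases when amino acids run short or protein folding is disturbed.

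Libraries held from 13407074 to 28540041 counts, and the synthetases took between 0.468% and 0.506% of them. PRDM16 had 2, 0 and 1 counts in IR+NC-LV and 14, 10 and 8 in IR+PR-LV, and the groups did not overlap (p = 0.1 by a 2-sided exact permutation test, which cannot go lower with 3 libraries a group). IR+NC-LV replicate 3 and IR+PR-LV replicate 1 stood apart within their groups: the chi-square of the counts per degree of freedom lay between 7.34 and 11.9 in pairs of replicates that included either, against 3.19 and 3.92 in the remaining pairs. Among the proximal tubule markers PAX8 had 137.5 TPM (a count scaled by gene length and by the sum over the library) and GGT1 69.9 TPM, whereas LRP2, HNF4A and ANPEP were each at 0.138 TPM or less, and the epithelial keratins KRT8, KRT18 and KRT19 lay between 553 and 834 TPM. The others of the 5 epithelial markers listed were lower, down to 0.42 TPM. Of 10 markers of other cells the highest was COL1A1 at 10.5 TPM. Values are from bulk RNA, in which fewer cells making a transcript and less of it per cell cannot be told apart.

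The promoters of the family are shown because the data below include both the synthetases and ATF4 with its other targets. RefSeq promoter windows (GRCh38.p14, 250 bases before to 50 bases after each annotated start) were at hand for 30 of the 37 genes. The letters TGATGNAA, the core of the C/EBP-ATF response element to which ATF4 binds, were searched on both strands and occurred in windows of 8 of the 30 genes (26.7%), against 4.46% of all 27305 gene symbols. A gene counts if any of its windows holds the letters, so genes with more annotated starts have more chances. Of all 35116 windows 3.62% held them. The symbols include genes not expressed in these cells. For TARS1, GARS1 and YARS2 the window belongs to a start inside the listed gene. Each match is given with 10 bases on either side, in the direction of the gene, with the matching letters in capitals.
AARS1, chr16:70289676-70289703, minus strand: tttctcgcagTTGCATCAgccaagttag
CARS1, chr11:3057408-3057435, minus strand: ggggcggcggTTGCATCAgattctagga
GARS1, chr7:30594835-30594862, plus strand: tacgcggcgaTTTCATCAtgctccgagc
IARS1, chr9:92293693-92293720, minus strand: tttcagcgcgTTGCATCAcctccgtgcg
MARS1, chr12:57488054-57488081, plus strand: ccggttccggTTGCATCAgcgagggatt
NARS1, chr18:57621805-57621832, minus strand: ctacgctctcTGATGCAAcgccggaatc
TARS1, chr5:33440957-33440984, plus strand: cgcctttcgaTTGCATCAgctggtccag
YARS2, chr12:32756077-32756104, minus strand: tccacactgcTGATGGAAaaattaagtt
Of these 8 genes, 7 code for enzymes of the cytosol or of both compartments, and 5 hold the form TTGCATCA in the direction of the gene, which NARS1 holds on the opposite strand. A match describes the letters of the window and does not show binding.

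For AARS1, the synthetase with the largest difference between the groups among those listed once, the 250 bases before the start are given in full, with the element in capitals 187 bases before the start.
AARS1, chr16:70289507-70289756, minus strand: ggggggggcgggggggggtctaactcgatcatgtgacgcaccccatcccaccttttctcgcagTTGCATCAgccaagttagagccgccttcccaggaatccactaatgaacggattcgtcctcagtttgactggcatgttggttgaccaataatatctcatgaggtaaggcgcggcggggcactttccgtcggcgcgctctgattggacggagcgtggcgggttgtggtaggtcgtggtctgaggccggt
HARS1 and HARS2, which code for the cytosolic and the mitochondrial histidyl-tRNA synthetase, lie head to head on chromosome 5, and their annotated starts are separated by 84 bases. These are given on the plus strand, with the letters CCGGAAG, the core bound by ETS-family factors, in capitals on either strand.
HARS1 to HARS2, chr5:140691371-140691454, plus strand: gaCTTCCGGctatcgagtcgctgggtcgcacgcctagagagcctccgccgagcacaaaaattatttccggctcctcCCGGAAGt
CCGGAAG occurred on one strand or the other in 16 of the 30 genes (53.3%), against 12.2% of all symbols.

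The cytosolic enzymes were expressed well above the mitochondrial ones. The median level over the 18 cytosolic enzymes was 149.6 ± 7.4 TPM (SD, n = 6), and over the 17 mitochondrial enzymes it was 19.1 ± 1.5 TPM (SD, n = 6). The ratio of these medians lay between 7.35 and 8.51 in every library and averaged 7.84 ± 0.397 (SD, n = 6). The level depends on the gene length used: with the length of the principal transcript of GENCODE release 29 the ratio was 6.01. The deposited lengths differed from these in both directions and in both compartments, from 4.58-fold longer for FARS2 and 2.73-fold for FARSB to 0.694 of the GENCODE length for TARS1.

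Threonyl-tRNA synthetase TARS1 had the highest mean level of the cytosolic group, at 459 ± 28.6 TPM (SD, n = 6), with 439 TPM in the lowest and 512 TPM in the highest library. It was followed by IARS1 for isoleucine (418 TPM), KARS1 for lysine (377 TPM), NARS1 for asparagine (342 TPM) and RARS1 for arginine (334 TPM). Each of these 5 enzymes overlapped in range with the next, but TARS1 lay above the other 4 in each of the 6 libraries on the deposited lengths. With the GENCODE lengths IARS1 and KARS1 stood first and second and TARS1 came at rank 4. RARS1 and EPRS1, at 287 TPM, did not overlap. EPRS1, which carries the activities for glutamate and proline in 1 protein, was followed by GARS1 at 259 ± 28.9 TPM, and the enzymes from YARS1 to QARS1 then covered 229 to 97.3 TPM. In all, 14 of the 19 neighbouring pairs in this order overlapped in their ranges.

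The levels of the lower cytosolic enzymes were less certain. FARSB, one of the subunits of the cytosolic phenylalanyl-tRNA synthetase, had 33.8 ± 2.26 TPM (SD, n = 6), while its partner FARSA had 113 ± 13.3 TPM (SD, n = 6). Rescaled to the GENCODE length of each gene, with the sum over the library left as deposited, these became 92.5 and 113. The deposited length of FARSB was 9202 exon bases. CARS1 for cysteine reached 21.5 ± 4.06 TPM and VARS1 for valine 12.8 ± 1.98 TPM (SD, n = 6) when all their listed copies were summed. How reads that match several copies were counted is not given, so such sums may fall short of the full level.

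In mitochondria the isoleucine enzyme IARS2 stood alone at 219.6 ± 12.7 TPM (SD, n = 6), 202 TPM in the lowest library and 232 TPM in the highest. RARS2 for arginine (63.9 TPM) and HARS2 for histidine (56.2 TPM) lay below it without overlap and overlapped with each other, and the enzymes below them ranged from 39.4 TPM for TARS2 to 3.97 ± 0.457 TPM for FARS2, the mitochondrial phenylalanine enzyme. FARS2 had rank 17 with the deposited lengths and rank 12 with GENCODE lengths. Of the 16 neighbouring pairs 10 overlapped.

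**Figure D1:**
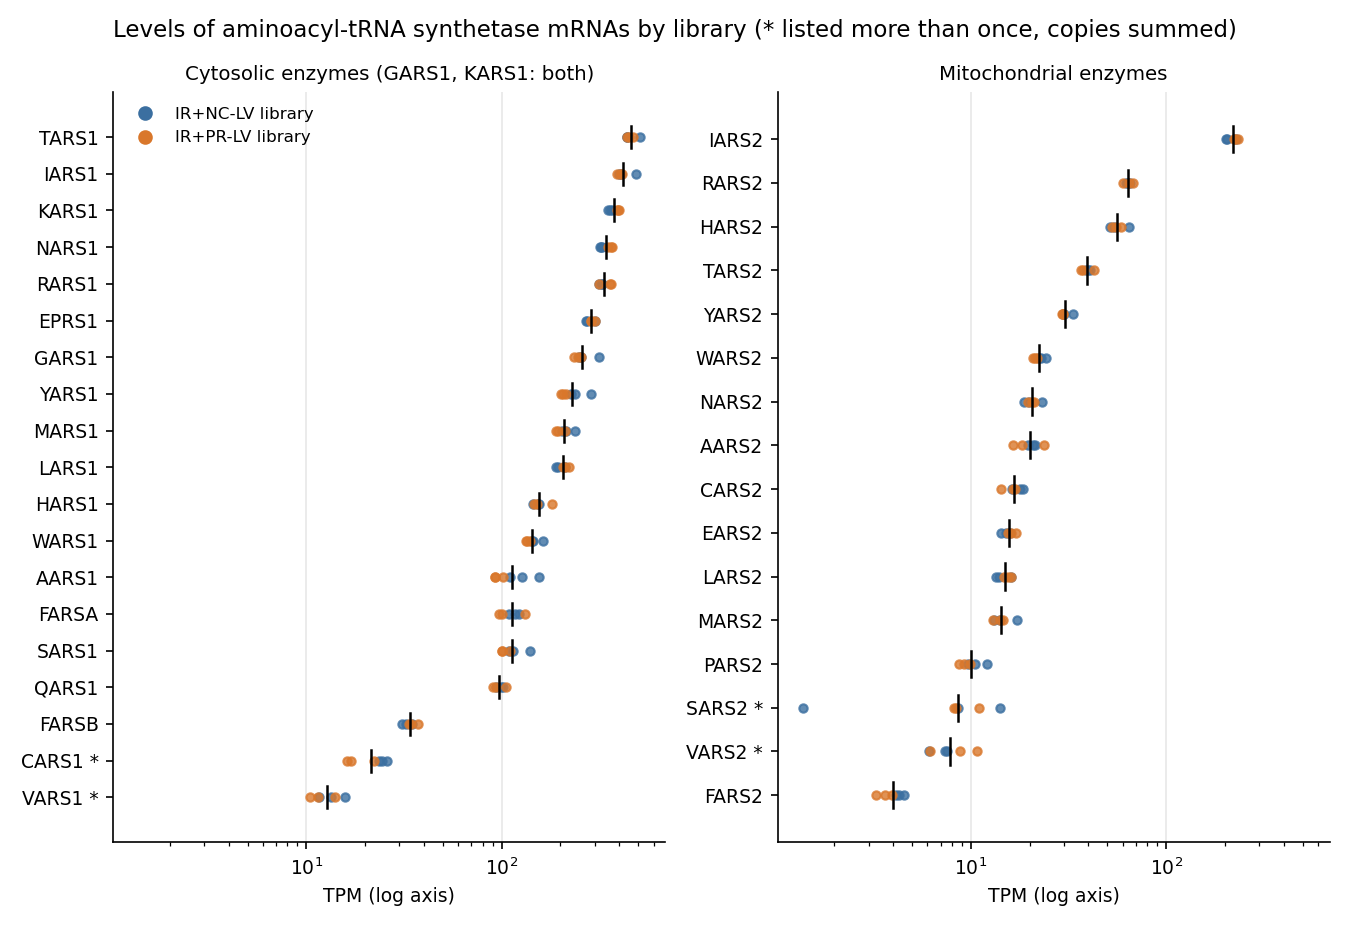
Level of 35 synthetase mRNAs in TPM on a log axis, with 1 point per library (blue, IR+NC-LV; orange, IR+PR-LV) and a bar at the mean of the 6 libraries; cytosolic and dual enzymes are on the left and mitochondrial enzymes on the right. The highest mitochondrial enzyme, IARS2, lies at 219.6 TPM, within the range of the cytosolic enzymes, and 1 library of SARS2 lies at 1.38 TPM, apart from the other 5. Genes listed more than once are shown with their copies summed, which may fall short of the full level.

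The cytosolic and the mitochondrial enzyme for the same amino acid were compared for 13 pairs of genes, and on the deposited lengths the cytosolic mRNA was the higher in all 6 libraries in all 13 pairs. With the GENCODE lengths the cysteine pair turned, CARS1 over CARS2 being 1.29 ± 0.202 with the deposited lengths and 0.553 ± 0.0842 with the others (SD, n = 6, copies summed), and the other 12 remained above 1. Pairs with a gene listed more than once rest on summed copies, which may fall short of the full level. Among the 10 pairs in which both genes were listed once, the ratio of TPM ranged from 1.74 to 18.5 over libraries. It was largest for asparagine (NARS1 over NARS2, 16.8 ± 1.54), methionine (14.6 ± 1.01), leucine (13.8 ± 0.668) and threonine (11.7 ± 1.06). It was smallest for isoleucine (IARS1 over IARS2, 1.90 ± 0.160) and histidine (2.78 ± 0.233; SD, n = 6 for each). The ranges of the asparagine and methionine ratios overlapped. The order depended on the lengths, and with those of GENCODE the means were 15.3 for methionine, 11.6 for leucine, 8.77 for asparagine and 8.06 for threonine, and isoleucine and histidine still had the lowest ratios of the 10.

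The ratio was separated between the groups for 2 of the 10 pairs, beside 17.0% of all single entries whose groups did not overlap. YARS1 over YARS2, for tyrosine, was 8.00, 7.68 and 8.57 in IR+NC-LV and 7.33, 6.76 and 6.90 in IR+PR-LV. IARS1 over IARS2 was 2.01, 1.94 and 2.14 in IR+NC-LV and 1.74, 1.75 and 1.83 in IR+PR-LV. In both pairs every IR+PR-LV library lay below every IR+NC-LV library, and the other 8 pairs overlapped. The 17.0% is a share of single entries and not of ratios, and 2 of 10 lies near it. YARS1 and IARS2 did not overlap between the groups on their own, so the ratios are not separate findings. YARS2 shares 19.1% of its exon bases, and IARS1 6.85%, with a gene on the opposite strand. No test was made of these ratios.

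**Figure D2:**
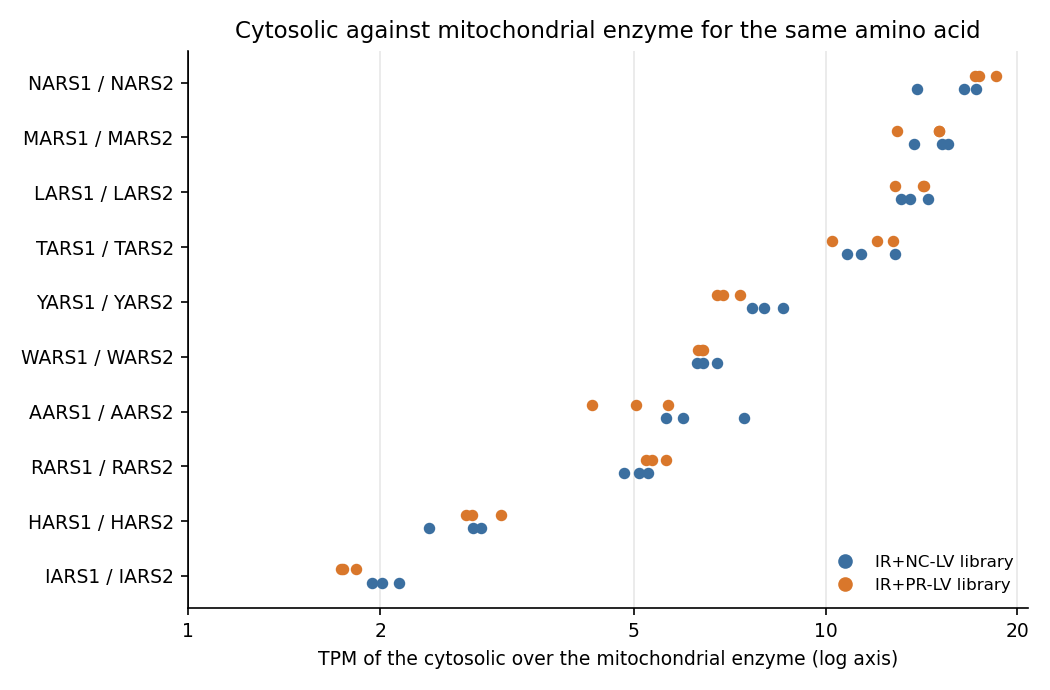
Ratio of the TPM of the cytosolic to that of the mitochondrial enzyme for the same amino acid (log axis) for the 10 pairs listed once, with 1 point per library (blue, IR+NC-LV; orange, IR+PR-LV). All points lie to the right of 1, and the groups are apart for the pairs of YARS1 and IARS1.

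No synthetase passed the test between the groups at an adjusted p under 0.05 in the quasi-likelihood test of edgeR, with p-values adjusted by Benjamini and Hochberg's method over the 15340 entries tested. Over all entries 10 passed, or 0.0652%, with 3 higher (0.0196%) and 7 lower (0.0456%) in the PRDM16 group. Among the synthetases the adjusted p ranged from 0.210 to 0.991. At an unadjusted p under 0.05 there were 8 of the 37 (21.6%), 5 higher and 3 lower, beside 10.5% of all entries (4.55% higher and 5.97% lower). The groups did not overlap for 12 synthetases (32.4%), 8 higher and 4 lower, beside 17.0% of all entries (7.49% higher and 9.53% lower). The synthetases were counted more deeply than most entries, with a median CPM (counts scaled to the library size, TMM-normalized) of 81.6 against 22.7, and whether the difference in these shares goes with depth was not tested. With IR+NC-LV replicate 3 and IR+PR-LV replicate 1 left out, 2 libraries a group, 14 synthetases (37.8%) had an unadjusted p under 0.05, beside 21.7% of all entries. In that setting 2 of the 37, AARS1 and YARS1, passed the adjusted threshold (edgeR), where 3.55% of all entries passed. The groups then did not overlap for 22 synthetases (59.5%), beside 53.3% of all entries.

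The differences were small and went both ways. The median log2 fold change was -0.02 over the cytosolic enzymes, with 9 above and 9 below 0, and 0.01 over the mitochondrial enzymes, with 10 above and 7 below 0. Over all entries tested it was 0.00444. For the 33 synthetases listed once the log2 fold change ranged from -0.41 to 0.20, and the 95% interval lay within 0.5 of 0 on the log2 scale for 31 of them, with a median half-width of 0.17. The 2 whose interval reached further were AARS1 and FARS2. The interval included 0 for 25 of the 33.

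**Figure D3:**
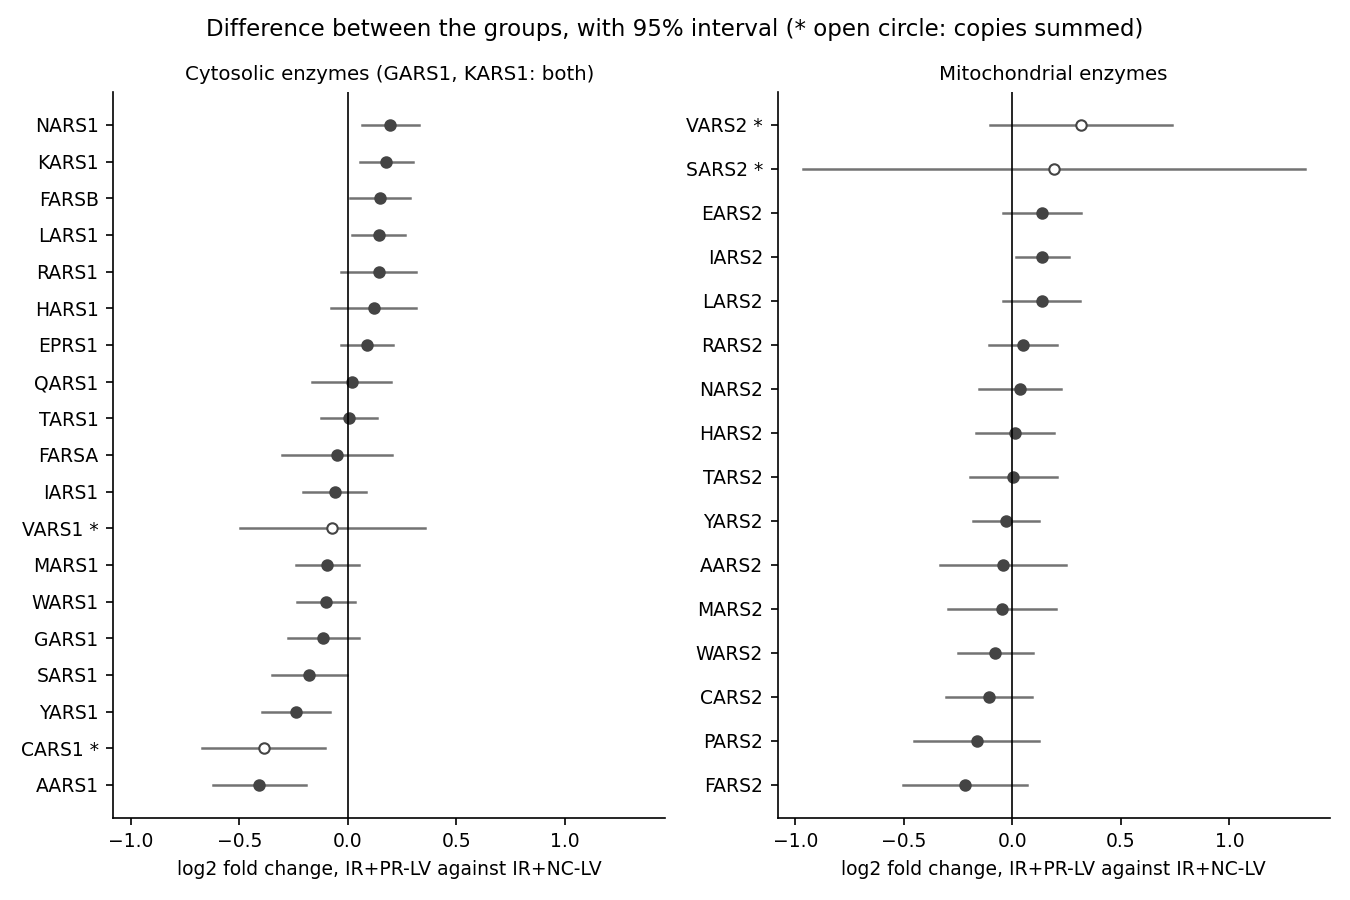
Log2 fold change of 35 synthetases, IR+PR-LV against IR+NC-LV, with its 95% interval from the edgeR fit; open circles are the 4 genes listed more than once, with their copies summed. Points lie on both sides of 0 in both compartments, AARS1 is the lowest at -0.41, and the interval of SARS2 is the widest.

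AARS1, the alanyl-tRNA synthetase (chromosome 16, 70252295 to 70289509, minus strand), had 134, 119 and 154 CPM in IR+NC-LV and 109, 99.6 and 98.1 CPM in IR+PR-LV. Every IR+PR-LV library lay below every IR+NC-LV library, and the highest value was that of IR+NC-LV replicate 3. The means were 135.6 ± 17.7 and 102.2 ± 5.85 CPM (SD, n = 3 each). The log2 fold change was -0.41 with a standard error of 0.10 and a 95% interval of -0.62 to -0.19. Its adjusted p was 0.210 by edgeR's quasi-likelihood test. AARS1 passed the threshold with DESeq2 (adjusted p = 0.0114), where 1.13% of all entries passed, and in edgeR without a filter on low counts (adjusted p = 0.00256), where 1.19% passed. It also passed in edgeR without the 2 libraries that stood apart (log2 fold change -0.35, adjusted p = 0.0244), where 3.55% passed. That setting, chosen after the data were seen, leaves out the highest AARS1 value of each group, so it is no separate support. With any 1 library left out the log2 fold change of AARS1 lay between -0.50 and -0.31 and its edgeR adjusted p between 0.0835 and 0.642.

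YARS1, the tyrosyl-tRNA synthetase (chromosome 1, 32775238 to 32817385, minus strand), followed the same order of groups. It had 185, 179 and 207 CPM in IR+NC-LV and 167, 158 and 159 CPM in IR+PR-LV, without overlap. The log2 fold change was -0.24 (standard error 0.07, 95% interval -0.40 to -0.08), with an adjusted p of 0.313 from edgeR. Without the 2 libraries that stood apart the log2 fold change was -0.20 (edgeR adjusted p = 0.0379), where 3.55% of all entries passed. This too leaves out the highest YARS1 value of each group and is no separate support. SARS1, for serine, had 174, 168 and 198 CPM in IR+NC-LV and 169, 157 and 153 CPM in IR+PR-LV. Its groups overlapped, and its log2 fold change of -0.18 had an adjusted p of 0.462 from edgeR. WARS1, for tryptophan, had groups that did not overlap at a log2 fold change of -0.10.

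NARS1, the asparaginyl-tRNA synthetase (chromosome 18, 57600656 to 57621836, minus strand), was the cytosolic enzyme with the largest difference upward. It had 272, 281 and 255 CPM in IR+NC-LV and 302, 313 and 312 CPM in IR+PR-LV. The groups did not overlap, and IR+NC-LV replicate 3 had the lowest value. Its log2 fold change was 0.20 (standard error 0.06, 95% interval 0.06 to 0.33; edgeR adjusted p = 0.322).

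The enzymes of both compartments differed in direction. KARS1, for lysine (chromosome 16, 75627724 to 75647665, minus strand), had 245, 256 and 242 CPM in IR+NC-LV and 283, 281 and 276 CPM in IR+PR-LV. All 3 IR+PR-LV libraries were above the others, and KARS1 differed by 0.18 on the log2 scale (standard error 0.05; edgeR adjusted p = 0.326). GARS1, for glycine (chromosome 7, 30594735 to 30634033, plus strand), had 212, 209 and 244 CPM in IR+NC-LV and 206, 198 and 209.9 CPM in IR+PR-LV, which overlapped. Its log2 fold change was -0.11, with a 95% interval of -0.28 to 0.05 (edgeR adjusted p = 0.628).

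KARS1 is 1 of the 8 synthetases of the multisynthetase complex, which also holds EPRS1, IARS1, LARS1, MARS1, QARS1 and RARS1 among others. Of these 8, 6 had a log2 fold change above 0 and 2 below, with a median of 0.07, and 3 of the 8, EPRS1, KARS1 and LARS1, were higher without overlap, beside 7.49% of all entries. The 12 cytosolic or dual enzymes outside the complex had 4 above and 8 below 0 and a median of -0.11. The summed level of the 8 enzymes was 2151, 2177 and 2235 CPM in IR+NC-LV and 2247, 2264 and 2282 CPM in IR+PR-LV. Every IR+PR-LV sum lay above every IR+NC-LV sum, the closest being those of the 2 libraries that stood apart. The sums include EPRS1, KARS1 and LARS1, which did not overlap on their own, so the sums are not a separate finding. IARS1 and MARS1 went the other way, at log2 fold changes of -0.06 and -0.10. The sum without EPRS1, KARS1 and LARS1 was not compared, and a rise of the complex as a whole is not shown. For the enzymes outside the complex the sums overlapped, at 1842 ± 72.2 and 1782 ± 24.7 CPM (SD, n = 3 each).

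LARS1, the leucyl-tRNA synthetase, which has also been described as a leucine sensor for the mTORC1 pathway, had 282, 295 and 292 CPM in IR+NC-LV and 310, 321 and 328 CPM in IR+PR-LV. The groups did not overlap, and the log2 fold change was 0.14 (95% interval 0.02 to 0.27; edgeR adjusted p = 0.421). FARSB, outside the complex, had 91.1, 88.6 and 91.5 CPM in IR+NC-LV and 95.9, 99.4 and 105.4 CPM in IR+PR-LV, with a log2 fold change of 0.15 (edgeR adjusted p = 0.448). Its partner subunit FARSA stood at 64.8, 62.1 and 63.8 CPM and at 73.9, 57.2 and 53.5 CPM, on both sides of the controls. TARS1, the enzyme with the highest level, had 419 ± 18.0 and 420 ± 10.7 CPM (SD, n = 3 each), and the 95% interval of its log2 fold change was -0.13 to 0.14.

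**Figure D4:**
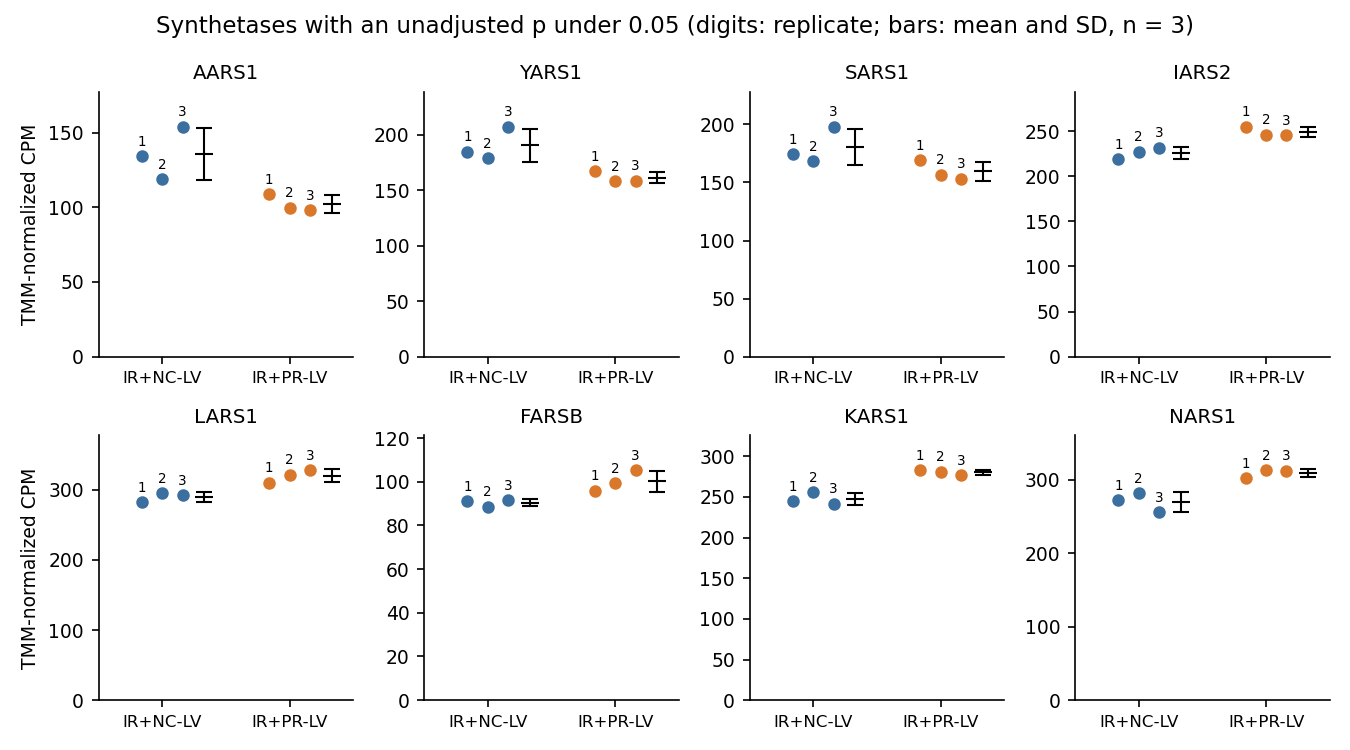
TMM-normalized CPM of the 8 synthetases with an unadjusted p under 0.05, by group, on axes that start at 0, with 1 point per library, its replicate number above it, and the mean and SD of each group (n = 3). The groups are apart for 7 of the 8 and overlap for SARS1, and for AARS1 the group means are 135.6 and 102.2 CPM.

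The scaffold proteins of the complex were tested beside its enzymes. AIMP1 had 132, 132 and 124 CPM in IR+NC-LV and 135, 143 and 148 CPM in IR+PR-LV. The groups did not overlap, at a log2 fold change of 0.13 (edgeR adjusted p = 0.485). AIMP2 had 34.8, 34.7 and 29.8 CPM and 27.1, 33.2 and 30.7 CPM, a log2 fold change of -0.13 with overlapping groups. EEF1E1, also known as AIMP3, had 27.4, 29.3 and 26.9 CPM in IR+NC-LV and 25.9, 36.6 and 35.7 CPM in IR+PR-LV. IR+PR-LV replicate 1 lay below all the controls, and the other two lay above them. EEF1E1 differed by 0.23 on the log2 scale (edgeR adjusted p = 0.562). Without the 2 libraries that stood apart it differed by 0.35 (edgeR adjusted p = 0.0379), where 3.55% of all entries passed. That setting, chosen after the data were seen, leaves out IR+PR-LV replicate 1, the library below the controls, so it is no separate support. The gene shares 34.3% of its exon bases with a readthrough gene on the same strand, and AIMP2 23.8% with a gene on the opposite strand.

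Among the mitochondrial enzymes IARS2 (chromosome 1, 220094132 to 220148041, plus strand) was the 1 with an unadjusted p under 0.05. It had 219, 227 and 231 CPM in IR+NC-LV and 255, 246 and 245 CPM in IR+PR-LV, without overlap. The log2 fold change was 0.14 (standard error 0.06, 95% interval 0.02 to 0.26; edgeR adjusted p = 0.429). EARS2 and LARS2, for glutamate and leucine, were also higher without overlap, each at a log2 fold change of 0.14, and WARS2 lower without overlap at -0.08. The sum over all mitochondrial entries was 715, 729 and 719 CPM in IR+NC-LV and 765, 754 and 747 CPM in IR+PR-LV. These sums did not overlap, but without IARS2 they did, at 495 ± 7.46 and 507 ± 4.15 CPM (SD, n = 3 each).

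FARS2 (chromosome 6, 5261007 to 5771583, plus strand) had the largest log2 fold change among the mitochondrial enzymes listed once, -0.22, with a 95% interval of -0.51 to 0.07 (edgeR adjusted p = 0.580). Its values were 10.8, 10.4 and 9.20 CPM in IR+NC-LV and 7.91, 9.53 and 8.63 CPM in IR+PR-LV, and IR+PR-LV replicate 2 lay within the range of the controls. HARS1 and HARS2, which share the stretch printed above, had log2 fold changes of 0.12 and 0.01, and the groups overlapped for both. HARS1 stood at 110.0 CPM in IR+PR-LV replicate 1 and between 86.1 and 92.9 CPM in the other 5 libraries, and its log2 fold change was -0.00376 without the 2 libraries that stood apart.

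VARS1, VARS2 and CARS1 had a leading entry that changed among libraries, whereas SARS2 had nearly all of its counts in 1 entry. VARS1 lies on chromosome 6 from 31777518 to 31795928, within the major histocompatibility complex, for which the genome build holds several alternate versions. The entry with the most counts was the assembled chromosome in IR+NC-LV replicate 1 (211 of 314 counts), copy 2 in IR+NC-LV replicate 2 (90 of 230) and copy 7 in IR+NC-LV replicate 3 (112 of 186). In IR+PR-LV it was copy 5 in replicate 1 (74 of 217), the assembled chromosome in replicate 2 (108 of 339) and copy 7 in replicate 3 (139 of 292). The leading copy thus differed among libraries of the same cell line within both groups. Tested alone, the chromosome 6 entry gave a log2 fold change of -0.92 (edgeR adjusted p = 0.677), which became 0.58 without IR+NC-LV replicate 1. With the 7 copies summed, VARS1 had 18.7, 10.9 and 13.4 CPM in IR+NC-LV and 12.9, 12.1 and 15.9 CPM in IR+PR-LV. This gave a log2 fold change of -0.07 with a 95% interval of -0.50 to 0.35.

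VARS2, the mitochondrial valine enzyme in the same region (30914238 to 30926459), had its counts mainly in copy 3. In IR+PR-LV replicate 3, however, copy 4 led with 101 of 224 counts, while the assembled chromosome held between 1.76% and 8.46% of its counts in every library. The log2 fold change was 0.21 for copy 3 alone and 0.32 for the 6 copies summed (edgeR adjusted p = 0.599), and copy 3 alone gave -0.06 without IR+PR-LV replicate 1.

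CARS1 (chromosome 11, 3000929 to 3057423, minus strand) was led by the assembled chromosome except in IR+NC-LV replicate 2, where its copy held 360 of 609 counts. Its log2 fold change was -0.17 in the chromosome entry and -0.39 with both copies summed (95% interval -0.67 to -0.11; edgeR adjusted p = 0.349). The summed values were 27.1, 28.9 and 24.6 CPM in IR+NC-LV and 24.8, 18.3 and 18.9 CPM in IR+PR-LV, and IR+PR-LV replicate 1 lay within the range of the controls.

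SARS2, for serine in mitochondria, is annotated on chromosome 19 from 38915266 to 38930763, but that entry held 2 counts over the 6 libraries. Its copy on an alternate scaffold held 146, 113 and 11 counts in IR+NC-LV and 88, 192 and 93 in IR+PR-LV. IR+NC-LV replicate 3 was thus far below the other 5 libraries, and without it the log2 fold change of the copy went from 0.19 to -0.28. Of the 253 gene names listed more than once with at least 100 counts in every library, 39 (15.4%) had a leading copy that differed among libraries.

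**Figure D5:**
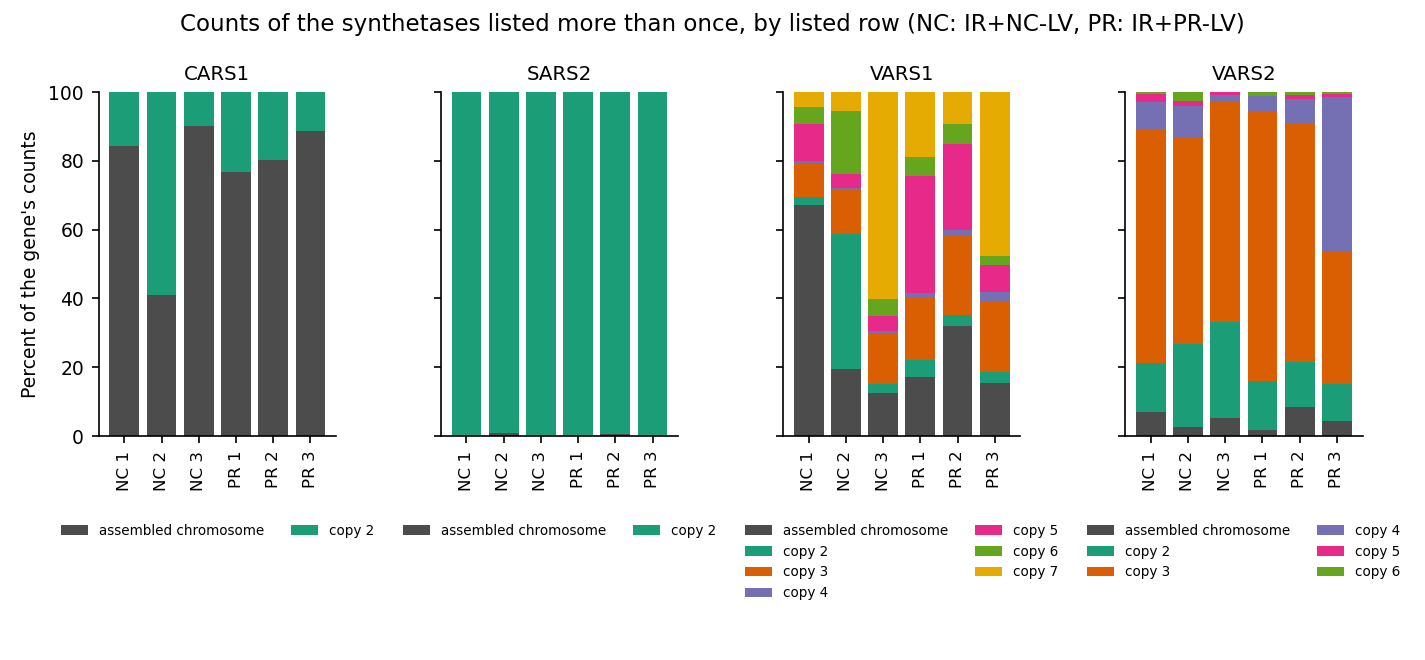
Percent of the counts of CARS1, SARS2, VARS1 and VARS2 that fell in each listed entry, in each library (NC, IR+NC-LV; PR, IR+PR-LV); bars add to 100. The assembled chromosome holds 67.2% of the VARS1 counts in IR+NC-LV replicate 1 and 12.4% in IR+NC-LV replicate 3.

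Other genes of aminoacylation were examined from a list of 11, of which 10 were in the table and 9 passed the filter. None passed the adjusted threshold (edgeR), and at an unadjusted p under 0.05 there was 1 of the 9, beside 10.5% of all entries. This was SEPSECS, which completes the charging of the selenocysteine transfer RNA. SEPSECS had 18.1, 17.2 and 22.3 CPM in IR+NC-LV and 14.2, 15.9 and 16.9 CPM in IR+PR-LV, without overlap, at a log2 fold change of -0.29 (edgeR adjusted p = 0.451). DTD1, which removes D-amino acids from transfer RNAs, had the next largest difference, at 0.17. It was also without overlap.

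The amino acid response list held 24 genes, of which 23 were tested in their first listed entry, and consists of ATF4, kinases upstream of it, and its partners and known targets other than synthetases. None passed the adjusted threshold in edgeR, and 8 had an unadjusted p under 0.05, all lower in IR+PR-LV, beside 5.97% of all entries that were lower. The groups did not overlap for 11 of the 23, 8 lower and 3 higher, beside 17.0% of all entries (9.53% lower and 7.49% higher), and the median log2 fold change was -0.14. In 7 of the 8 genes with an unadjusted p under 0.05 the highest control value was that of IR+NC-LV replicate 3, and without that library 6 were lower, beside 5.01% of all entries. Without both libraries that stood apart 10 were lower, beside 10.4% of all entries, and 2 higher, beside 11.3%. SLC3A2, TRIB3, DDIT3 and SHMT2 then passed the adjusted threshold (edgeR), at log2 fold changes of -0.48, -0.43, -0.31 and -0.19, where 3.55% of all entries passed. These 4 were named after their values were seen. The setting was also chosen after the data were seen. For each of the 4 it leaves out the highest value of either group, that of IR+PR-LV replicate 1 included, so it is no separate support. ATF4 itself had 246, 254 and 229 CPM in IR+NC-LV and 272, 242 and 236 CPM in IR+PR-LV, with overlapping groups and a log2 fold change of 0.04 (edgeR adjusted p = 0.882). It shares 47.2% of its exon bases with MIEF1 on the same strand, so the value cannot be read as that of ATF4 alone.

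SLC7A11, the cystine transporter, had the largest difference of the list. Its values were 59.5, 54.9 and 107 CPM in IR+NC-LV and 42.8, 39.2 and 52.6 CPM in IR+PR-LV, and the groups did not overlap. The log2 fold change was -0.72 (edgeR adjusted p = 0.370) and -0.35 without IR+NC-LV replicate 3, which had the highest value. Without a filter on low counts SLC7A11 passed the threshold (edgeR adjusted p = 0.000131). The next was ASNS, asparagine synthetase, at -0.64, but it had only between 6 and 19 counts per library and shares 69.5% of its exon bases with a readthrough gene on the same strand, so its level cannot be read from this entry.

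Of the 8 synthetases with TGATGNAA in a promoter window, 6 had a log2 fold change below 0 and 2 above, with the copies of CARS1 summed. The median was -0.08, and the values ran from -0.41 for AARS1 and -0.39 for CARS1 to 0.20 for NARS1. Of the 22 matched synthetases without the letters, 8 were below and 14 above 0, with a median of 0.03. All of the 8 genes with the letters but YARS2 code for cytosolic or dual enzymes, and the split was not made within a compartment. Genes without a window, YARS1 (-0.24) and LARS1 (0.14) among them, enter neither side. The split is a description of genes chosen with earlier results of these data known, and no test was made of it.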

How the data were processed

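Counts per gene, TPM and FPKM were deposited by the authors for each library. The submitters' processing notes name CASAVA, featureCounts 2.0.1, DESeq2 1.16.1 and hg38. The aligner, the annotation release and the strand setting are not given in the sources used here, so reads of overlapping genes on opposite strands cannot be told apart. Of the synthetases 7 share over 5% of their exon bases with such a gene. Among them are YARS2 (19.1%), WARS2 (11.1%), HARS1 (11.0%) and IARS1 (6.85%). The deposited TPM and FPKM follow from the counts, the listed lengths and the library totals. Tests used the deposited counts in edgeR 4.0.16 (R 4.3.3): filterByExpr (minimum count 10, total 15), TMM factors, quasi-likelihood fit without covariates on all 15340 entries passing, Benjamini-Hochberg adjustment, threshold 0.05. Intervals are 95% intervals of the fit. A synthetase listed more than once is represented by its entry with the most counts; copies summed by name are the alternative. The labels do not say that replicates are separate cultures, so p-values measure the spread between these libraries, which may be technical.

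Of the 37 synthetases, 2 enter the counts and medians but are not reported here one by one, nor is 1 marker gene. The members, lists, motifs and tests were chosen with earlier results of these data known. Named were the 4 cytosolic and 3 mitochondrial members with the largest differences, the highest and lowest levels, both dual enzymes, members listed more than once, the scaffold genes, ATF4 and the 2 largest differences of each list. FARSB, LARS1, SARS1, FARSA, HARS1, HARS2 and other members without overlap were added after their values were seen. Alternatives were RLE and upper-quartile scaling, DESeq2 1.42.0, other filters, the replicate block, each library left out and summed copies; leaving out both libraries that stood apart and the GENCODE lengths were added after the data were seen. The procedure was tested on simulated counts. Depth was 13407074 to 28540041 counts per library, and counts without molecular identifiers are not independent molecules.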

Additional observations from a re-analysis of the deposited data

How the results depend on the processing

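The count of synthetases past the threshold stayed at 0 under RLE and upper-quartile scaling, the stricter filter, the replicate block, each library left out and summed copies. Among the cytosolic enzymes it was 1 with DESeq2 and 1 without a filter, AARS1 in both, and 2 without IR+NC-LV replicate 3 and IR+PR-LV replicate 1; among the mitochondrial enzymes it stayed at 0. Without a filter, copies 2 and 5 of VARS1 and copy 4 of VARS2 passed besides. The count over all entries, 10, was 173 with DESeq2, 342 without a filter, 555 without both libraries, and between 1 and 28 with 1 library left out. With 1 library left out the median log2 fold change ranged from -0.0574 to 0.0137 for the cytosolic and from -0.0254 to 0.0503 for the mitochondrial enzymes, so neither has a settled sign. The ratio of cytosolic to mitochondrial levels was 6.01 with GENCODE lengths.

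The alternatives were followed one by one for 18 of the 37 synthetases, and the sign turned for 7 of these 18 and for ATF4. With 1 library left out the log2 fold change ranged from -1.32 to 0.58 for the VARS1 entry, -0.0552 to 0.34 for VARS2, -0.28 to 0.83 for SARS2, -0.0236 to 0.0416 for TARS1, -0.0294 to 0.0766 for HARS2, -0.20 to 0.0396 for FARSA and -0.0248 to 0.0781 for ATF4. Without both libraries that stood apart it was -0.0362 for VARS2, -0.22 for SARS2, -0.00376 for HARS1 and -0.0660 for ATF4, and it was -0.00688 for TARS1 with upper-quartile scaling. The causes were not tested.

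With the replicate block 3 entries passed, and AARS1 had an adjusted p of 0.219 (edgeR). The numbers were not taken to pair the libraries: deviations of same-numbered libraries correlated at -0.00884, 0.0514 and 0.0706, and the block is given for completeness.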
